A study of Homo sapiens with 3 samples.

Results

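MALAT1 and NEAT1 are neighbouring genes of long noncoding RNAs on the long arm of chromosome 11. Their peaks were taken from the peak lists of an anti-Flag and an anti-POLR2A chromatin immunoprecipitation as every peak with the symbol MALAT1 or NEAT1 and every peak in a 100 kb window around both genes, each position counted once. That gave 10 of the 11565 Flag-USP39 peaks and 19 of the 14027 POLR2A peaks. Both genes were chosen by their tag counts and their peak classes in these lists, so their levels and the contrasts between the antibodies are given as descriptions, with no test.

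The cells were A2780, an ovarian cancer line that the labels call serous. There were 3 libraries with 1 in each group: anti-Flag from cells with Flag-USP39, anti-POLR2A as the positive control named by the series, and an input made of 10% of genomic DNA. USP39 is a component of the tri-snRNP, a particle of the spliceosome, and POLR2A is the largest subunit of RNA polymerase II. The sources used here do not say how the tagged protein was expressed or whether the POLR2A and input cells carried it. No anti-Flag precipitation from cells without the tag was analysed here.

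Both RNAs are made by RNA polymerase II, stay in the nucleus and are abundant in many cell types. MALAT1 RNA is largely unspliced and gathers in nuclear speckles, bodies rich in splicing factors. Its 3′ end is cut by RNase P, which frees a small tRNA-like RNA, mascRNA. NEAT1 starts at 1 promoter and is made as a short polyadenylated isoform and a long isoform that runs on from the same start, and the long one is the scaffold of paraspeckles.

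Every position is on hg19 unless GRCh38 is named. The tables placed MALAT1 at chr11:65265233-65273983 on the plus strand, 8751 bp long. NEAT1 was given as a long transcript at chr11:65190269-65213009 (22741 bp) and a short one that shares its start and ends at 65194003 (3735 bp). Between the end of NEAT1 and the start of MALAT1 lie 52223 bp, where neither list had a peak. MIR612, a microRNA gene of 100 bp at chr11:65211929-65212028, lies inside the long NEAT1 transcript. The peak tables carry no strand for the tags, so tags of MALAT1 and of TALAM1, an antisense RNA gene that overlaps it in RefSeq, cannot be told apart.

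The promoter sequences that could be matched are those of MALAT1, shown because both antibodies' MALAT1 peaks began downstream of the start site in the tables. RefSeq's GRCh38.p14 promoter table matched 1 of the 2 genes by symbol and holds 2 starts for MALAT1, 1307 bp apart, each with 250 bases before and 50 bases from the start. The sequences run 5′ to 3′ on the plus strand, from chr11:65497488-65497787 for the first and chr11:65498795-65499094 for the second, and capitals mark matches on either strand to the motif GGGCGG or the motif TATAAA.
MALAT1 first start: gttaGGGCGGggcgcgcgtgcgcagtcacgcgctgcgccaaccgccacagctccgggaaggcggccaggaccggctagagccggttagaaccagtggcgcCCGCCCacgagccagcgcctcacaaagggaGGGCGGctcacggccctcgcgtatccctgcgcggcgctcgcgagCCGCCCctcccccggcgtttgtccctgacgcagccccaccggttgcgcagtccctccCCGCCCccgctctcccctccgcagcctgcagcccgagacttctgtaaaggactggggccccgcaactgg
MALAT1 second start: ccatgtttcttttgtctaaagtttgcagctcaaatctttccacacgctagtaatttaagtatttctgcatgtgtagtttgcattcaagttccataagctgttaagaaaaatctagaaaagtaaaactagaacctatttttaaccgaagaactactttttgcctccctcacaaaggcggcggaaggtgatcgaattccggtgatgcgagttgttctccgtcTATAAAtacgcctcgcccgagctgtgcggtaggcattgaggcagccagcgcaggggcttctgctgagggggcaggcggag

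These promoters differed in base composition and motifs. The first was 73.7% G or C with 37 CpG pairs, and 87.7% of the 35116 promoters in the table had less G and C. It held GGGCGG 5 times over both strands, a motif found in 45.0% of all promoters, and no TATAAA. The second was 46% G or C with 14 CpG pairs, and it held TATAAA once, beginning 30 bases before the start. TATAAA was found in 11.5% of all promoters. Neither window held, on either strand, CCAAT (in 34.6% of all promoters), CACGTG (in 7.26%) or TGACTCA (in 4.95%). A match is a run of letters and not a shown binding site.

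Over MALAT1 both antibodies gave 1 very wide, very deep peak. The Flag-USP39 peak, at chr11:65266505-65273959, was 7455 bp wide and held 1661 tags (exact 95% Poisson interval 1582 to 1743). The POLR2A peak, at chr11:65265898-65273941, was 8044 bp wide and held 1722 tags (1642 to 1805). All such intervals cover counting error only, and with 1 library per antibody there is no replicate error. The tag counts are the authors' own and carry no normalization.

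The 2 MALAT1 peaks were close to the same stretch of DNA. They shared 7437 bp, which is 99.8% of the Flag-USP39 and 92.5% of the POLR2A peak. For comparison, 6.04% of all Flag-USP39 peaks met a POLR2A peak and 5.10% of all POLR2A peaks met a Flag-USP39 peak. The POLR2A peak began 607 bp earlier, and the ends lay 18 bp apart. Flag-USP39 covered 85.2% of the annotated gene and POLR2A 91.9%.

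Both peaks left the annotated start uncovered and stopped close to the annotated end. The POLR2A peak began 665 bp and the Flag-USP39 peak 1272 bp downstream of the start in the tables. The latter distance is close to the 1307 bp between the starts that RefSeq lists on GRCh38, but positions were not carried between the builds. At the 3′ side the Flag-USP39 peak stopped 24 bp and the POLR2A peak 42 bp short of the annotated end. The authors' class for both was exon. As background, of 293 transcripts of at least 1 kb with 20 or more POLR2A tags 94 had their start under a POLR2A peak (32.1%), and for Flag-USP39 it was 12 of 159 (7.55%).

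**Figure D1:**
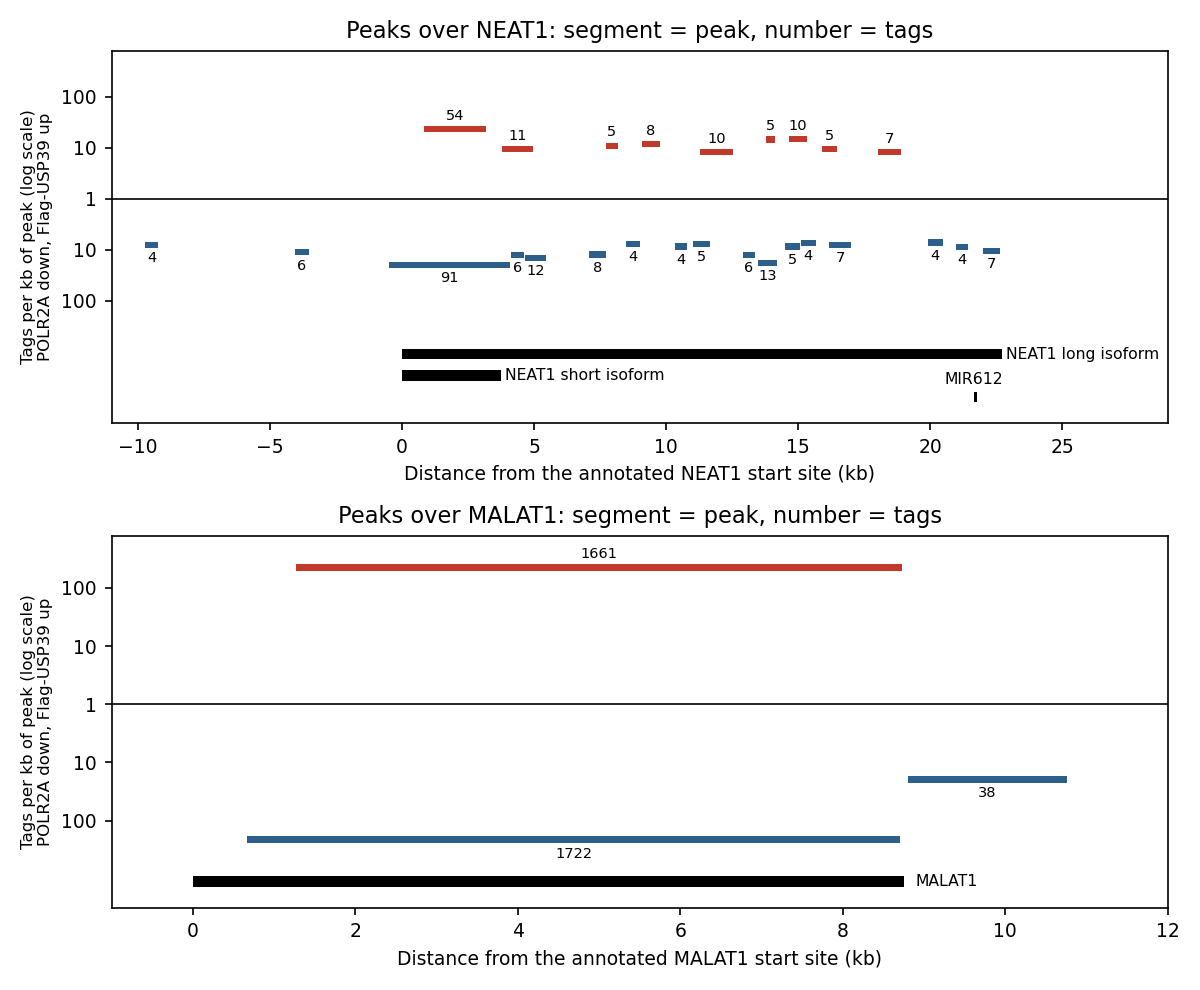
Peaks of both antibodies over NEAT1 (top) and MALAT1 (bottom) by distance from the annotated start site in kb. Each segment spans a peak, its height is the tags per kb of that peak on a log scale (Flag-USP39 upward in red, POLR2A downward in blue), its label is the tag count, and black bars are the annotated transcripts. The MALAT1 peaks of 1661 and 1722 tags span nearly the same stretch, while NEAT1 holds 9 Flag-USP39 and 15 POLR2A peaks, with the last Flag-USP39 peak ending 3855 bp before its end.

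The summits, the points of highest pile-up inside a peak, were far apart. The Flag-USP39 summit lay at base 6979 of the transcript, 79.8% of the way along it, and the POLR2A summit at base 3962, or 45.3%. They were 3017 bp apart. A summit is 1 position in a peak more than 7 kb wide, and the height of the pile-up elsewhere in the peak is not in the tables.

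The tag counts of the 2 MALAT1 peaks were nearly equal. The ratio of Flag-USP39 to POLR2A tags was 0.965 (exact 95% interval 0.901 to 1.03). Per kb of peak the counts were 223 for Flag-USP39 and 214 for POLR2A. MALAT1 took 2.67% (2.54 to 2.79, exact binomial) of all 62327 tags in Flag-USP39 peaks and 2.0% (1.91 to 2.09) of the 86228 tags in POLR2A peaks. Dividing by these totals moves the ratio to 1.33. The totals come from lists called at different p-value limits. At a peak score of at least 50 in both lists MALAT1 took 2.67% of the Flag-USP39 and 3.08% of the POLR2A tags. At a score of at least 100 it took 9.56% and 8.0%. Which antibody is higher at MALAT1 thus depends on the scaling and on the limit.

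A ratio near 1 was common where the lists overlapped. Taken 1 to 1, 690 pairs of peaks overlapped by at least 1 bp. The 114 pairs outside the window with 20 or more tags in both lists had a median ratio of 0.968 (quartiles 0.846 and 1.07), and 58 of them lay above MALAT1. Meeting a peak of the other list was also common among large peaks. A POLR2A peak was met by 2.03% of the Flag-USP39 peaks with 3 to 5 tags, 33.1% of those with 6 to 19 and 94.2% of those with 20 or more. In the other direction it was 1.83% of the POLR2A peaks with 4 to 5 tags and 68.8% of those with 20 or more.

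**Figure D2:**
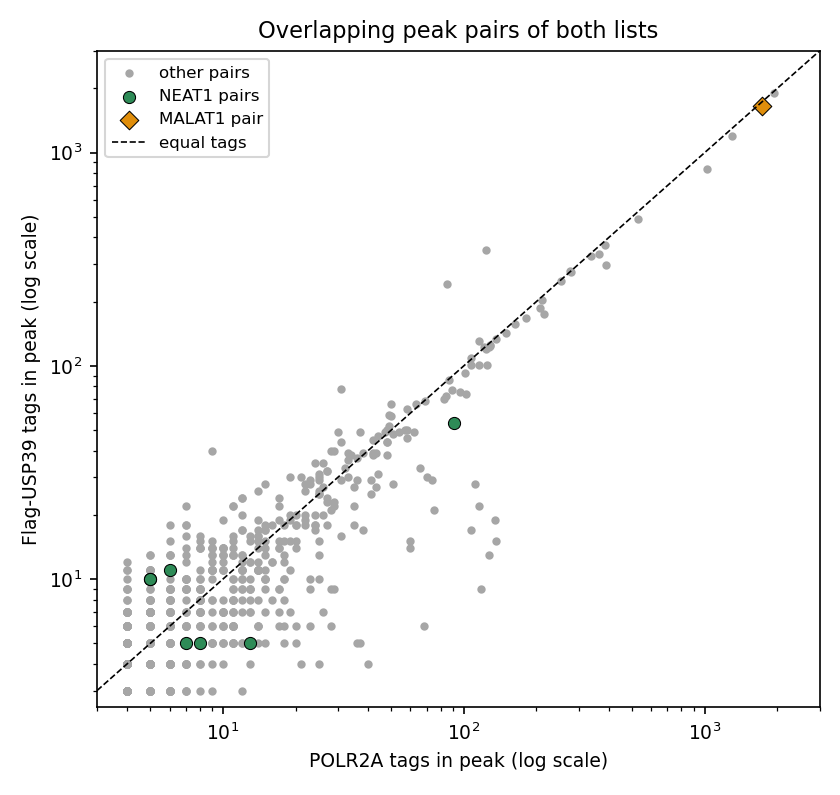
Tags of overlapping peak pairs, POLR2A on the horizontal and Flag-USP39 on the vertical axis, both on log scales. Grey points are pairs outside the window, the diamond is MALAT1, green points are NEAT1 pairs, and the dashed line marks equal tags. MALAT1 lies close to the line, with a ratio of 0.965, and the largest NEAT1 pair, with 54 and 91 tags, lies below it.

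MALAT1 stood second of all peaks by tags in both lists, and its peak was the widest in the POLR2A list and the second widest in the Flag-USP39 list. The one wider Flag-USP39 peak spanned 17734 bp of AHNAK, which encodes a very large scaffold protein, with 349 tags. By fold enrichment, the caller's ratio of signal to local background, MALAT1 was far from the top. Its fold enrichment was 37.1 in the Flag-USP39 list, where it ranked 2156 of 11565, and 23.7 in the POLR2A list, where it ranked 7522 of 14027. The medians of all peaks were 32.7 and 24.9, near the 32.7 and 23.6 of peaks with 4 tags. Among peaks with 20 or more tags the medians were 54.3 and 60.2, also above MALAT1. Fold enrichments are the authors' values, each against its own local background, and are read here within a list.

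**Figure D3:**
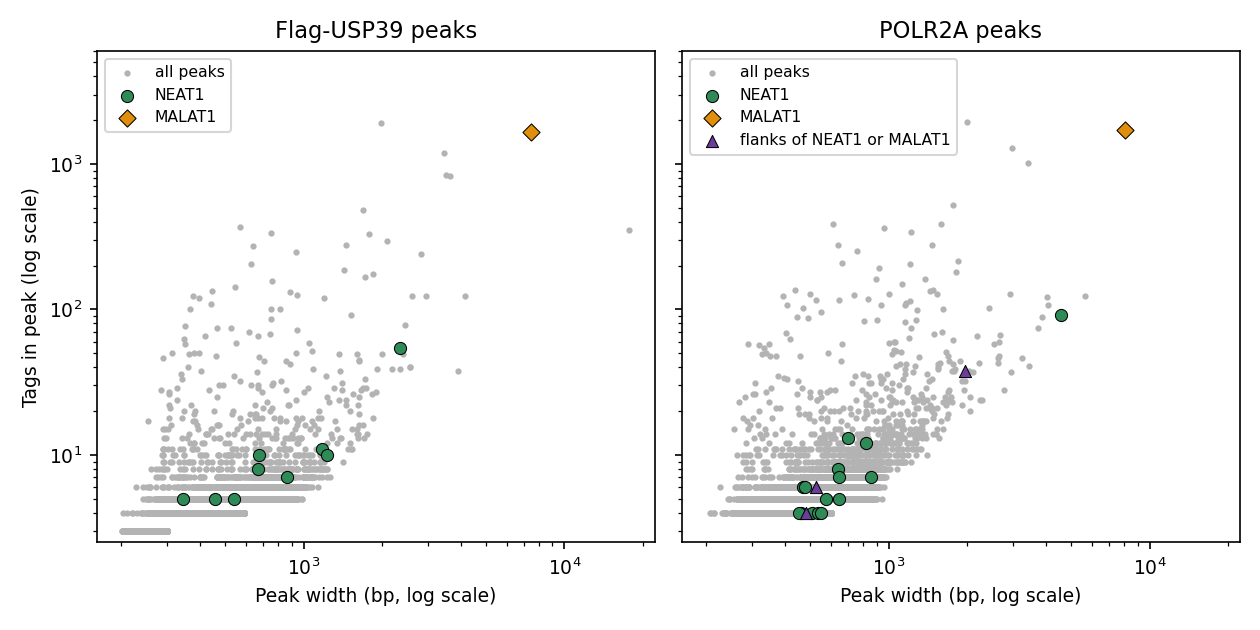
Peak width in bp against tags in the peak, both on log scales, for the Flag-USP39 list (left) and the POLR2A list (right). Grey points are all peaks, the diamond is MALAT1, green circles lie on NEAT1 and purple triangles lie just outside either gene. MALAT1 stands second by tags in both lists, and the largest NEAT1 peak is the third widest of the POLR2A list.

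Per kb of annotated transcript MALAT1 had more tags than any other of 11561 transcripts of at least 1 kb that the tables name. It had 190 Flag-USP39 tags per kb (181 to 199) and 197 POLR2A tags per kb (188 to 206). The next transcript for both antibodies was ANXA2P2, a processed pseudogene, with 29.8 and 32.1 tags per kb. MALAT1 was thus 6.38 and 6.14 times above the next. Among transcripts with any peak the medians were 0.0648 and 0.126 tags per kb.

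The 5 overlapping pairs outside the window that were most like MALAT1, by the lower of their tag counts, were not exon peaks. At the start of chromosome 5, at chr5:9929-11904, a peak assigned to PLEKHG4B held 1910 Flag-USP39 and 1938 POLR2A tags. The others were assigned to EMBP1 (1191 and 1296), LINC00680 (840 and 1023), LOC101927151 (486 and 526) and LOC101927914 (368 and 387). The authors classed 4 of the 5 as intergenic and the last as upstream. Their ratios ran from 0.821 to 0.986, a range that holds the MALAT1 value, and their Flag-USP39 fold enrichments from 1.89 to 1786.

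Directly past the end of MALAT1 the POLR2A list had a further peak. It lay at chr11:65274032-65275994, began 49 bp past the annotated end, and held 38 tags (26.9 to 52.2) over 1963 bp. Its summit was 1249 bp past that end. Its fold enrichment of 9.07 was among the lowest of the POLR2A list, rank 13966 of 14027, where the median was 24.9. The table gives it neither the symbol MALAT1 nor an exon class. The Flag-USP39 list had no peak there. A list holds only what passed its threshold (3 tags were the fewest in any Flag-USP39 peak), so Flag-USP39 tags below that limit cannot be told from none.

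NEAT1 carried peaks of both antibodies along its length, although no line of the Flag-USP39 table bears its name. By position, 9 Flag-USP39 peaks lay on the long transcript with 115 tags in all (94.9 to 138), and 15 POLR2A peaks with 180 tags (155 to 208). All 9 Flag-USP39 peaks and 14 of the 15 POLR2A peaks were assigned to MIR612, the microRNA gene inside NEAT1. By symbol alone NEAT1 would have 0 Flag-USP39 tags and 101 POLR2A tags (82.3 to 123), the latter from 1 peak on the gene and 2 upstream of it.

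The first pair of peaks on NEAT1 got different symbols although the peaks overlap. The first Flag-USP39 peak had its centre 2016 bp from the NEAT1 start and the table lists it as upstream of MIR612, at -19645 bp. The POLR2A peak around it had its centre at 1802 bp and is listed as a NEAT1 promoter peak. The largest distance of any promoter-class peak was 1998 bp in the Flag-USP39 and 1999 bp in the POLR2A table. Of the NEAT1 peaks the authors' class was upstream for all 9 of Flag-USP39, and upstream for 11 and promoter for 4 of POLR2A. None was classed as exon or intron.

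The deepest peaks on NEAT1 lay over the part that both isoforms share. The Flag-USP39 peak at chr11:65191115-65193452 held 54 tags (40.6 to 70.5) over 2338 bp. The POLR2A peak at chr11:65189779-65194362 held 91 tags (73.3 to 112) over 4584 bp. The Flag-USP39 peak lay wholly within the POLR2A one, with 51.0% of its width. Their summits were 3 bp apart, at bases 1676 and 1673 of the transcript. By fold enrichment neither peak stood high. The Flag-USP39 peak had 18.4, rank 11385 of 11565, and the POLR2A peak 19.9, rank 9753 of 14027. The medians of all peaks were 32.7 and 24.9, and those of peaks with 20 or more tags 54.3 and 60.2.

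At the NEAT1 start the antibodies' peaks differed in reach. The POLR2A peak began 490 bp upstream of the start, covered all of the short isoform and ran on to base 4094. The Flag-USP39 peak began 846 bp past the first base and left the start uncovered. The tag ratio of this pair was 0.593 (0.416 to 0.840), lower than at MALAT1, and 7 of the 114 pairs with 20 or more tags in both lists (6.14%) lay below it. Per kb of peak the order was the other way, with 23.1 Flag-USP39 and 19.9 POLR2A tags per kb.

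Beyond the end of the short isoform the peaks were small and spread over the rest of the long transcript. There were 8 Flag-USP39 peaks of 5 to 11 tags, with a median of 7.5 and 61 tags in all (46.7 to 78.4). POLR2A had 14 peaks of 4 to 13 tags, with a median of 5.5 and 89 in all (71.5 to 110). The largest of Flag-USP39 was at chr11:65194071-65195247 with 11 tags, and the largest of POLR2A at chr11:65203756-65204453 with 13. The last Flag-USP39 peak, of 7 tags, ended 3855 bp before the end of NEAT1. POLR2A had 3 peaks of 4, 4 and 7 tags in those last bases, the last of them ending 107 bp before the end of the gene.

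Tags per kb of transcript were lower over the long-only part than over the shared part in both lists. The shared part held 14.5 Flag-USP39 tags per kb (10.9 to 18.9) and the rest 3.21 (2.46 to 4.12), a ratio of 4.51 (3.06 to 6.61). For POLR2A the values were 24.4 (19.6 to 29.9) and 4.68 (3.76 to 5.76), a ratio of 5.20 (3.84 to 7.05). The intervals of these ratios overlap widely. The shared part took 47.0% (37.6 to 56.5) of the Flag-USP39 and 50.6% (43.0 to 58.1) of the POLR2A tags on NEAT1. All tags of the first POLR2A peak were counted in the shared part, although that peak reached past both of its ends. The POLR2A density, ratio and share of that part can therefore be too high, while the Flag-USP39 peak lay wholly inside it.

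**Figure D4:**
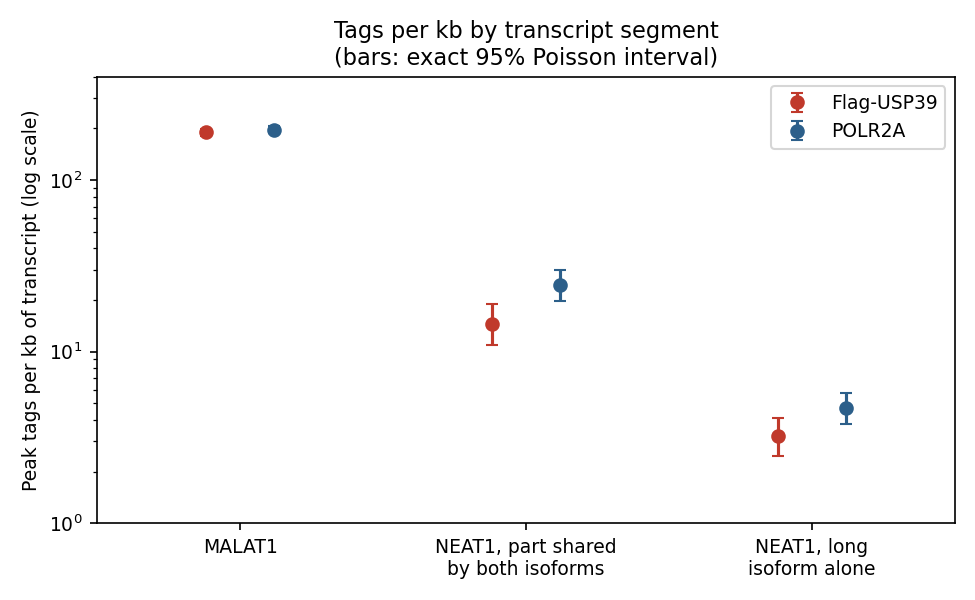
Peak tags per kb of transcript, on a log scale, for MALAT1, the part of NEAT1 that both isoforms share and the part of the long isoform alone. Points are the values of the single Flag-USP39 (red) and POLR2A (blue) library, and bars are exact 95% Poisson intervals. Values run from 190 and 197 over MALAT1 to 14.5 and 24.4 and then to 3.21 and 4.68 over the NEAT1 parts. The POLR2A peak counted in the shared part reaches past both of its ends, so the value of 24.4 can be too high.

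Peaks of the lists met each other often on NEAT1, and over the long part the shared bases matched the coverage. Of the 8 Flag-USP39 peaks in the long part 6 met a POLR2A peak, against 13.6% of all Flag-USP39 peaks with 5 to 11 tags. Of the 14 POLR2A peaks there 8 met a Flag-USP39 peak, against 3.60% of all POLR2A peaks with 4 to 13 tags. POLR2A peaks covered 45.8% of this part, and they covered 45.7% of the bases under its Flag-USP39 peaks. One of the meetings, at chr11:65197985-65198440, shared only 7 bp.

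Over the whole long transcript the ratio of Flag-USP39 to POLR2A tags was 0.639 (0.501 to 0.812), against 0.965 (0.901 to 1.03) at MALAT1. Over all peaks of the lists it was 0.723, which lies within the NEAT1 interval. Scaled by the lists' total tags at their own limits, the ratio was 0.884 at NEAT1 and 1.33 at MALAT1. The lists were called at different limits, a p-value of 1e-05 for Flag-USP39 and 1e-04 for POLR2A. At a score of at least 50 in both lists, the Flag-USP39 limit, NEAT1 kept all 9 Flag-USP39 peaks and 8 of 15 POLR2A peaks, with 150 tags. The ratio was then 0.767 (0.596 to 0.984). At a score of at least 100 in both lists it was 0.552, from 64 Flag-USP39 tags. The NEAT1 ratios were below 1 at each limit. The ratio of 0.723 over all peaks holds at the lists' own limits only. It was not taken at a common limit, so it cannot be set beside the NEAT1 ratios there. All these ratios are a description of 1 library per antibody.

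MALAT1 exceeded NEAT1 by far in both lists. Per kb of transcript MALAT1 had 37.5 times the Flag-USP39 tags and 24.9 times the POLR2A tags of long NEAT1, and 13.1 and 8.08 times those of the shared part. NEAT1 itself still ranked high, with 5.06 Flag-USP39 tags per kb (rank 32 of 11561 transcripts) and 7.92 POLR2A tags per kb (rank 38). By number of peaks it ranked 9 for Flag-USP39 and 4 for POLR2A, without allowing for length.

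Upstream of NEAT1 the POLR2A list had 2 small peaks, and Flag-USP39 had none. They lay at chr11:65186221-65186748 with 6 tags and chr11:65180554-65181037 with 4 tags, the lower limit of that list. Their distances to the NEAT1 start were -3784 and -9473 bp.

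POLR2A peaks with no Flag-USP39 counterpart and the most tags were sought outside the window as the loci most like NEAT1, on the premise that NEAT1 lacked a Flag-USP39 peak. By position it does not, so these peaks share less with it than the rule assumed. They were assigned to OR4C46 (162 tags), ANKRD30BL (102), NBPF20 (99), GRAP (82) and HIST1H2BD (67).

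Genes of paraspeckle proteins, which bind NEAT1 RNA or are found with it, had only small peaks, as most peaks of both lists were small. Of 18 such genes 7 had any annotated Flag-USP39 peak and 7 a POLR2A peak, against 25.0% and 33.2% of protein-coding genes. By the tags of a gene's best single peak, the RNA-binding protein genes DAZAP1 and SFPQ were highest for Flag-USP39, with 6 each. The DAZAP1 peak was classed as intron, and the SFPQ peak as intergenic, at -22706 bp from the SFPQ start. HNRNPH3, which encodes an hnRNP protein, had a best POLR2A peak of 9 tags at its promoter, and TARDBP, the gene of another RNA-binding protein, one of 6. No single peak of a member reached 10 tags in either list. Of all peaks, 97.1% of the Flag-USP39 list held fewer than 10 tags and 96.9% of the POLR2A list fewer than 12. There were 11 members with a peak of either antibody. Of all symbols that the tables name, 56.5% had a Flag-USP39 peak and 72.1% a POLR2A peak.

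Other noncoding RNA genes, most of them with nuclear RNAs, had far smaller peaks than MALAT1. Of 26 genes 11 had an annotated Flag-USP39 peak and 13 a POLR2A peak. The shares were 5.35% and 5.94% among lncRNA genes in RefSeq, a class that includes many genes the peak tables may not annotate. There were 15 members with a peak of either antibody. Among all symbols that the tables name, 56.5% had a Flag-USP39 peak and 72.1% a POLR2A peak. Some counted peaks lay far from the gene, such as a Flag-USP39 peak at -83878 bp from SNHG5. With promoter and exon peaks only, the counts were 5 and 9. By the best single peak of each gene, the highest were RPPH1, the RNA of RNase P, with 48 Flag-USP39 and 51 POLR2A tags, and RMRP, the RNA of RNase MRP, with 38 and 34. As background, both are transcribed by RNA polymerase III. The best peaks of SNHG3, a snoRNA host gene, held 6 Flag-USP39 and 20 POLR2A tags. Those of NORAD, a long cytoplasmic RNA, held 8 and 17, the latter as the best of 6 POLR2A peaks. SNHG1 (11 tags) and TERC, the telomerase RNA gene (10), had best POLR2A peaks of that size and no annotated Flag-USP39 peak. All these values go by symbol, and the case of NEAT1 shows that a gene can hold peaks under another symbol.

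Most single peaks of both lists were shallow. The median peak of either list held 4 tags. As a check of the cell label, 5 of 9 epithelial and ovarian cancer marker genes (CDH1, ESR1, KRT8, PAX8 and WT1) had an annotated POLR2A peak, where 33.2% of protein-coding genes did. For Flag-USP39 it was 3 of 9 (ESR1, KRT8 and WT1), where 25.0% did. None of the 9 had a promoter peak of either antibody. That class held 669 of the 11565 Flag-USP39 and 2509 of the 14027 POLR2A peaks, and the share of all genes with such a peak was not taken. Of 8 markers of other cell types none had a peak of either antibody. That list held no keratinocyte genes, and KRT5, a keratin of basal keratinocytes, held 103 Flag-USP39 and 111 POLR2A tags, while TCHH and KRT14 held 137 and 66 Flag-USP39 tags. Both lists were called against the same input library, whose own level over MALAT1 and NEAT1 is not in the tables, so its part in the coincidence of the lists was not tested.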

How the data were processed

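Chromatin immunoprecipitation libraries of 1 anti-Flag, 1 anti-POLR2A and 1 input sample were compared as 2 peak annotation tables, each headed as an antibody against the input. Per the submitters' processing notes, Bowtie2 2.2.4 and MACS 1.4.3 were used with hg19. The sources used here give neither the handling of duplicate reads nor the tags per library. Deposited tag counts are raw and whole, 1 count per peak. The deposited score is -10 times the log10 of the peak's p-value, per the file headers, with lowest values of 50 for Flag-USP39 and 40 for POLR2A. Fold enrichment was deposited as a linear ratio to the local background. FDR was deposited in percent, as the headers say, and was not used for any result.

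The tables repeat a peak per transcript: the 11565 Flag-USP39 peaks filled 20273 lines, and the 14027 POLR2A peaks filled 27766. The class kept was that of the nearest annotated start. Deposited starts of plus-strand transcripts were read as zero-based. A peak lay on a transcript if it shared 1 bp with it, and all its tags were counted. NEAT1 was split at the end of the short isoform by peak centre for tags and by base for coverage. Overlapping pairs were formed 1 to 1, longest shared stretch first. Intervals are exact Poisson for tags and exact binomial for shares and ratios. Groups came from the antibody label, and with 1 library each no test across samples was made. Promoter sequences are RefSeq's, GRCh38.p14.

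Members and gene lists were chosen with earlier results of these data known. Named genes follow a fixed rule: those of the window, the 5 pairs with most tags, the 5 POLR2A peaks of most tags without a Flag-USP39 peak, and of each list those with 10 or more tags or else the 2 with most. AHNAK, ANXA2P2 and those in the closing section were chosen after their values were seen. Some genes that the rule names are not reported here. Overlap code was tested on simulated data. Python 3.11.15 with pandas 2.3.3, numpy 2.4.6, scipy 1.17.1 and matplotlib 3.10.9 was used.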

Additional observations from a re-analysis of the deposited data

How the results depend on the processing

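Of 51 alternatives 22 left a value within its interval or a count within 1.5 times. At a score of at least 100 in both lists the window held 3 Flag-USP39 and 5 POLR2A peaks, and at 10 or more tags 5 and 5. At a score of at least 50 it held 11 POLR2A peaks, and by the symbols MALAT1 or NEAT1 alone 1 and 4. The MALAT1 ratio of Flag-USP39 to POLR2A was 1.33 over the lists' total tags, 1.04 per kb of peak and 1.57 by fold enrichment, a value that the lists' own local backgrounds enter. The MALAT1 share of Flag-USP39 tags was 8.87% among peaks of 10 or more tags and 9.56% at a score of at least 100. Its share of POLR2A tags was 7.02%, 8.0% and, at a score of at least 50, 3.08%. In alternatives chosen after the data were seen, NEAT1 POLR2A tags were 180 by position in place of the symbol. NEAT1 Flag-USP39 tags were 0 by symbol, 64 at a score of at least 100 and 85 at 10 or more tags, and the NEAT1 ratio was 0.884 over the lists' total tags. Among all Flag-USP39 peaks, those meeting a POLR2A peak were 5.15% at a score of at least 50, 63.5% at 100 and 68.9% at 10 or more tags. With promoter and exon peaks only, 4 paraspeckle and 5 noncoding RNA genes had a Flag-USP39 peak. At a score of at least 100, the counts were 0 paraspeckle genes for Flag-USP39 and 0 for POLR2A, and 2 and 4 noncoding RNA genes. Stricter limits remove peaks by construction, and the cause of the other shifts was not tested. No paired analysis was possible because each group held 1 library. Depth limits what can be said of NEAT1, where most peaks held under 10 tags.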

Other observations

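Assignment of peaks to a gene other than the one they lie in was not particular to NEAT1 and MIR612 in the tables. Of 1502 Flag-USP39 peaks that the authors classed as upstream, 301 (20.04%, exact binomial interval 18.0 to 22.2) lay wholly inside a transcript of another symbol named in the tables. Among POLR2A peaks it was 466 of 1946 (23.9%, 22.1 to 25.9). In the promoter class it was 86 of 669 Flag-USP39 peaks (12.9%) and 245 of 2509 POLR2A peaks (9.77%). In the intergenic class, the one with the most peaks of these, it was 357 of 5299 (6.74%) and 267 of 5049 (5.29%). Counts per gene symbol from these tables therefore leave out peaks inside some genes.

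After MALAT1 and ANXA2P2 the transcripts with the most Flag-USP39 tags per kb included SFN (22.1), the keratin gene KRT5 (17.5), the actin gene ACTB (16.8), TCHH (15.0) and the keratin gene KRT14 (14.3). SFN (19.01), KRT5 (18.9) and ACTB (25.8) were also among the 8 highest for POLR2A, with the histone gene HIST2H2BE (27.4), ACTG1 (18.3) and TOB1-AS1 (17.1). SFN, KRT5, KRT14 and TCHH are known from keratinocytes and hair follicles.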
